A study of Mus musculus with 12 samples.

Results

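Ventricular myocytes of adult mice deficient for CaMKIIδ and CaMKIIγ (double knockout, DKO) were compared with those of corresponding wild-type (WT) mice after both had been cultured with 100 nM isoprenaline (Iso) for 24 h. The comparison uses 6 of the 12 arrays of the series, 3 from DKO and 3 from WT mice, each from a different animal. The other 6 arrays hold myocytes of the same 6 mice kept without Iso, so by the mouse numbers in the labels each animal gave 1 untreated and 1 treated array. The question is which transcripts depend on the kinases once the beta-adrenergic receptors are driven, in a study that asked whether an Iso-induced phosphorylation of histone H3 goes along with altered gene expression. Of 24704 genes with a probe set, 13737 lay above the median of their array on at least 3 of the 12 arrays and were tested, and 10967 were too dim. The sources used here do not give the sex, the strain, the construct behind each deletion or the cells in which it acts. Both genotypes went through the same enzymatic isolation by Langendorff perfusion and the same culture.

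CaMKII is a serine/threonine kinase that calcium-bound calmodulin switches on. In heart muscle its delta form predominates and its gamma form is also present, and it phosphorylates the calcium release channel of the sarcoplasmic reticulum, phospholamban and class IIa histone deacetylases, which hold back MEF2 transcription factors. Isoprenaline activates beta-adrenergic receptors, which raise cyclic AMP, activate protein kinase A and increase calcium cycling, and through this calcium also CaMKII.

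Expression is given as the log2 signal of an Affymetrix array, on which 1 unit is a doubling, and values ran from 2.25 to 13.8 with an array median near 3.32. The 6 Iso-treated arrays correlated with each other at 0.982 to 0.992 across genes, which are not independent replicates. Untreated DKO array 3 stood apart, with a median correlation of 0.956 to the other arrays against 0.984 to 0.988 for each of the remaining 11. It is not among the arrays compared here, but it adds to the common estimate of spread. With 3 arrays per group, the number of animals limits the precision of every value. A dim probe set is no proof of absence, since Gapdh and Gnas, which heart cells use, also read as dim. Ventricular myocyte genes were bright in both groups. The atrial myosin light chain Myl7 and sarcolipin (Sln) were also seen on some arrays, as given with the marker genes.

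Under Iso, 42 of the 13737 genes passed the test (limma, Benjamini-Hochberg adjusted p under 0.05), which is 0.306% of the genes tested. Of these, 15 were higher in DKO (0.109%) and 27 lower (0.197%). The muscle structure genes Tpm2 and Myot were among the higher ones. Metabolic genes passed in both directions, such as Bdh1 as higher and Ogdhl and Slc2a3 as lower. Among the lower ones were Nppa, which encodes atrial natriuretic peptide, the chemokines Ccl5, Cxcl3 and Ppbp, estrogen receptor Esr1, and 3 probe sets named for microRNA genes. The sizes of the 42 differences ran from 0.66 to 4.41 log2 units with a median of 1.34, and 31 exceeded a doubling or halving. Over all genes the median difference was 0.00456 and the standard deviation 0.25, and the deposited arrays share 1 distribution, which holds that median near 0. At an unadjusted p under 0.05 there were 1087 genes (7.91%), and on 2417 genes (17.6%) the 3 DKO arrays did not overlap the 3 WT arrays, with DKO higher on 9.03% and lower on 8.56% of genes.

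**Figure D1:**
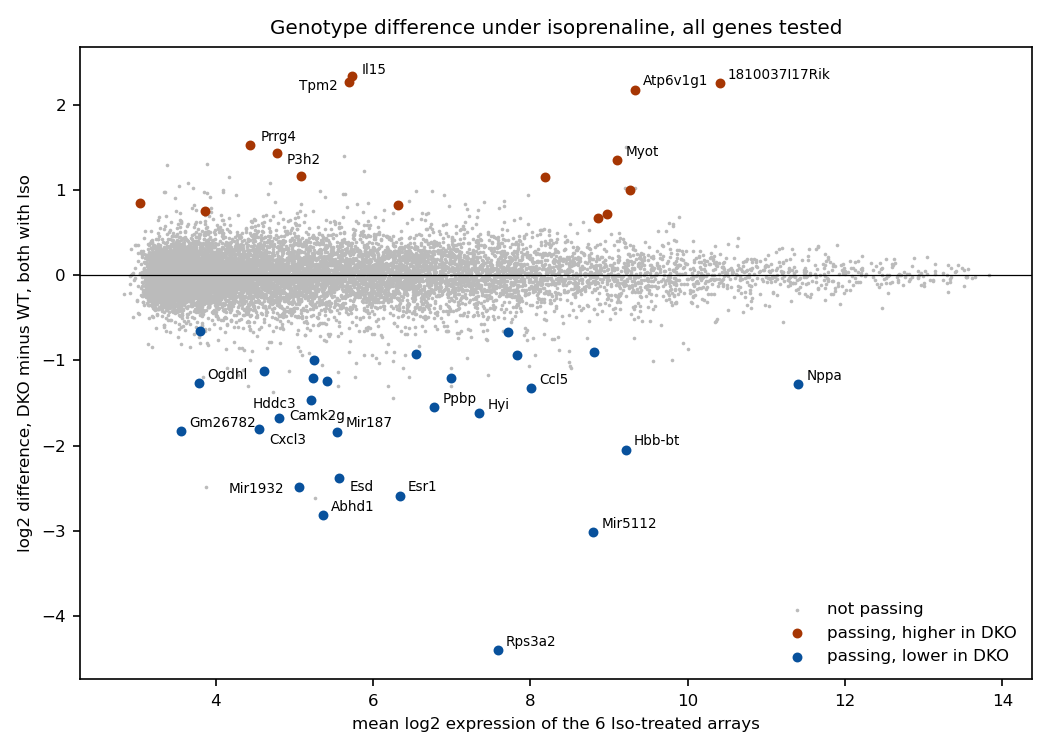
Each point is 1 of the 13737 genes, with the mean log2 signal of the 6 Iso-treated arrays on the horizontal axis and the log2 difference, DKO minus WT, on the vertical axis. The 15 genes passing as higher in DKO are brown and the 27 passing as lower are blue and the widest differences are named, from Il15 at 2.35 to Rps3a2 at -4.41.

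The calls rest on few arrays. All 42 genes kept the sign of their difference in every alternative in which they were tested, but only 10 kept an adjusted p under 0.05 whichever single array was left out: Rps3a2, Mir5112, Abhd1, Mir1932, Tpm2, Esd, Il15, Ccl5, Camk2g and the predicted gene 1810037I17Rik. Leaving out DKO Iso array 1, 2 or 3 ended 31, 32 and 24 of the 42 calls. Without WT Iso array 1, 2 or 3, 30, 29 and 19 calls were lost. Of the untreated arrays, which add only to the estimate of spread, WT array 1, 2 or 3 ended 12, 10 and 9 calls, and DKO array 1, 2 or 3 ended 6, 1 and 0. The number of calls over all genes ran from 10 without DKO Iso array 2 to 163 without untreated DKO array 3. For the genes below that lost their call in this way, the highest adjusted p over these 12 fits is given beside them.

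The deleted genes were read first. Camk2g (Entrez gene 12325), the gamma form, read 3.88, 3.89 and 4.11 on the 3 DKO Iso arrays and 5.40, 5.71 and 5.80 on the WT Iso arrays. Every DKO array lay well below the lowest WT array, near the lower end of the scale. The difference was -1.67 (SE 0.20, n = 3 per group, limma adjusted p = 0.00238), a 3.19-fold lower level, against -1.17 without Iso (adjusted p = 0.0361). Camk2d (Entrez gene 108058), the delta form, read 7.75, 7.98 and 7.71 in DKO and 8.10, 8.42 and 7.99 in WT. The groups did not overlap, but the gap of -0.35 (SE 0.17, limma adjusted p = 0.640) did not pass, and the DKO signal remained far above the array median. Probes outside a deleted stretch would not check the genotype, and where the probes of these genes lie was not determined here. The alpha form Camk2a differed by -0.38 (adjusted p = 0.711) and the beta form Camk2b by -0.03 (adjusted p = 0.991).

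Around them, the list of CaMKII and related calmodulin kinases had 14 tested members. Camk2g fell and none rose (1 of 14, beside 0.306% of all genes), and 10 of the 14 differences were below 0, beside 49.1% of all genes, with a median of -0.15. The cardiac myosin light chain kinase Mylk3, which calmodulin also regulates, differed by -0.76 (limma adjusted p = 0.110) and its arrays did not overlap. In the gene order of the RefSeq table for assembly GRCm38.p6, none of the 5 nearest tested genes on either side of Camk2d or Camk2g passed. The largest gaps among these 20 neighbours were 0.32 for Ap3m1 (adjusted p = 0.740) and 0.30 for Adk (adjusted p = 0.800), both next to Camk2g. Farther along chromosome 14, which carries Camk2g, 5 of 518 tested genes passed (0.965%, beside 0.306% of all genes), all lower in DKO: Camk2g, Ogdhl, Gm26782, Esd and Rps3a2, with 101, 276, 738 and 799 genes between Camk2g and the other four in this order. On chromosome 3, which carries Camk2d, 2 of 612 passed (0.327%), a share near that of all genes, and of these 1810037I17Rik had 15 genes between it and Camk2d.

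The probe sets named for microRNA genes gave some of the widest gaps. MicroRNAs are short RNAs that pair through their seed, bases 2 to 8, with target messages and lower their translation or stability. Which transcript these probe sets detect, the mature RNA, its precursor or a host transcript, was not determined here. Of Mir5112, Mir1932 and Mir187, a sequence is given only for Mir1932, and those of the others were not examined here. By RefSeq (GRCm38.p6) the Mir1932 hairpin lies on the plus strand at chr11:119390472-119390561 within the annotated span of Rnf213. Mir1932 is shown because its probe set passed and that of the gene around it, which read low, did not. Capitals mark the seed in the mature RNA (chr11:119390524-119390545) and the mature part in the hairpin.
mmu-miR-1932: gUUGCGGAcagcgcuaggucgg
Mir1932 hairpin: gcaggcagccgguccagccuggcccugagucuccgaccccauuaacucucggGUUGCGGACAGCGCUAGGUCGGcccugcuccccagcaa

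Mir1932 (Entrez gene 100316690) read 3.96, 3.91 and 3.57 on the DKO Iso arrays and 5.95, 6.2 and 6.76 on the WT Iso arrays. Every DKO array was close to the array median, and every WT array was at least 2 units above it. The difference was -2.49 (SE 0.23, limma adjusted p = 2.74e-04), 5.61-fold lower in DKO. Rnf213, the surrounding gene, differed by -0.04 (limma adjusted p = 0.984). Its probe set read low, with means of 3.87 in DKO and 3.92 in WT, so little can be said of a change in it. Without Iso the difference in Mir1932 was 0.34 (adjusted p = 0.522), and the test of the difference between the effects with and without Iso passed (-2.83, limma adjusted p = 0.00642).

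Mir5112 (Entrez gene 100628586) read 6.96, 7.39 and 7.5 in DKO and 10.26, 10.08 and 10.56 in WT under Iso. Here too the groups lay far apart, by -3.02 (SE 0.23, limma adjusted p = 7.79e-05) or 8.11-fold. Without Iso the order was the opposite: DKO read 7.45, 7.18 and 7.88 and WT 5.73, 5.81 and 6.46, a difference of 1.5 (adjusted p = 0.0195). The change of the genotype effect with Iso was -4.52 (limma adjusted p = 7.87e-05). Mir5112 and Mir1932 were the only 2 of the 13737 genes (0.0146%) that passed this interaction test, in which 1388 genes (10.1%) had an unadjusted p under 0.05. The third, Mir187, read 4.30, 4.43 and 5.14 in DKO and 6.39, 6.40 and 6.58 in WT. Its fall of -1.84 (SE 0.34, adjusted p = 0.0483) stood just inside the threshold and lost it in 10 of the 12 fits without 1 array, with an adjusted p of up to 0.271. In all, 3 of 141 tested microRNA genes passed (2.13%), against 31 of 12023 protein-coding genes (0.258%).

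Esr1 (Entrez gene 13982), which encodes estrogen receptor alpha, a hormone-activated transcription factor, read 5.14, 4.75 and 5.25 in DKO and 7.95, 6.64 and 8.30 in WT under Iso. The WT arrays were spread widely but all lay above the DKO arrays. The difference was -2.59 (SE 0.38, limma adjusted p = 0.0123), 6.01-fold, and reached an adjusted p of 0.0953 without DKO Iso array 2; it also lost the call without DKO Iso array 1 or WT Iso array 1. Untreated myocytes gave 0.78 (adjusted p = 0.384), and the interaction of -3.37 did not pass (adjusted p = 0.102).

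**Figure D2:**
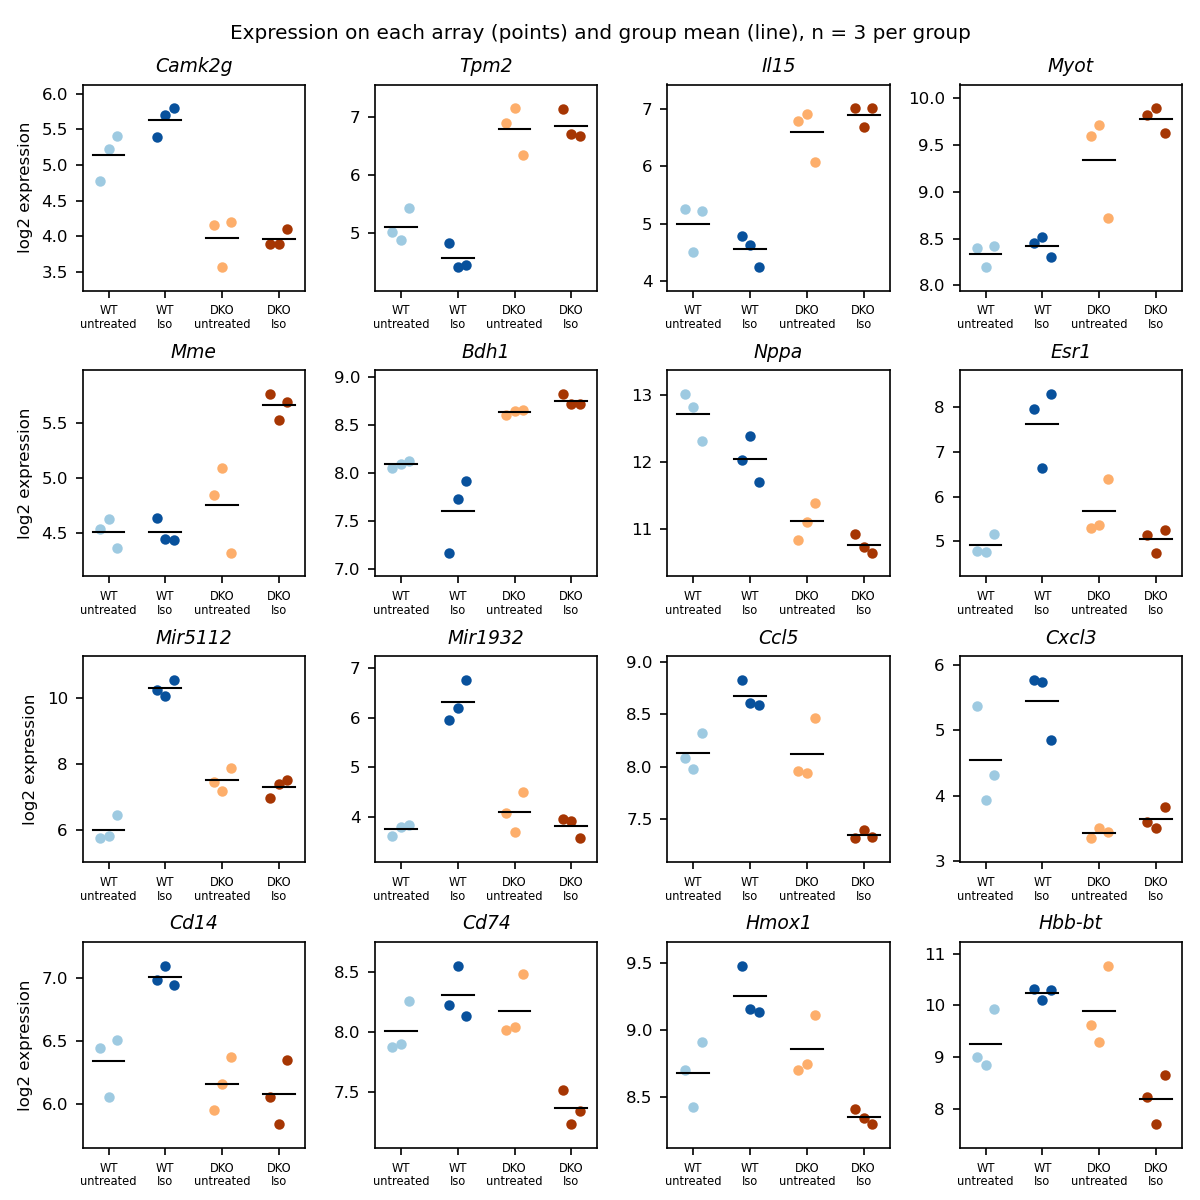
Log2 signal of 16 genes on each of the 12 arrays (points) with the mean of each group (line), in the order WT untreated, WT Iso, DKO untreated, DKO Iso, n = 3 per group; each panel has its own vertical axis, which does not start at 0. In Camk2g, Tpm2, Il15 and Nppa the genotypes are apart with and without Iso, whereas in Mir1932, Ccl5, Cd74 and Hmox1 they are apart with Iso and overlap without it.

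Few genes of the contractile apparatus and its load response were called different. Of 27 tested genes of the sarcomere and Z-disc none passed, and their median difference was -0.03. Tpm2 and Myot, which passed and are described below, are not in this list. On 6 of the 27 the DKO arrays lay below all WT arrays and on 2 above, beside 8.56% and 9.03% of all genes. The smallest p in the list belonged to Tcap (-0.55, limma adjusted p = 0.150). Among 25 tested genes of the hypertrophy and stretch response, Tpm2 rose and Nppa fell (2 of 25, beside 0.306% of all genes). Of the 25, 15 were below 0, beside 49.1% of all genes, and the median was -0.11. Of the 23 tested genes of MEF2 factors, class IIa deacetylases and cardiac transcription factors none passed, with a median of -0.02.

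Tpm2 (Entrez gene 22004), the beta form of the thin-filament protein tropomyosin, read 7.13, 6.71 and 6.66 in DKO and 4.83, 4.42 and 4.44 in WT. The lowest DKO array was nearly 2 units above the highest WT array. The rise of 2.27 (SE 0.22, limma adjusted p = 4.8e-04) is 4.83-fold, and without Iso the difference was 1.69 (adjusted p = 0.00723). Tpm1, the alpha form that dominates the adult ventricle, differed by -0.11. Myot (Entrez gene 58916), which encodes the Z-disc protein myotilin, read 9.82, 9.89 and 9.63 in DKO and 8.45, 8.52 and 8.30 in WT. Its rise of 1.36 (SE 0.21, adjusted p = 0.0198) lost its call without any 1 of the 6 Iso-treated arrays, with an adjusted p of up to 0.129. The untreated difference of 1.00 did not pass (adjusted p = 0.0952).

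Nppa (Entrez gene 230899), the precursor of atrial natriuretic peptide, which is made by atrial muscle and by ventricular muscle under load, read 10.92, 10.73 and 10.65 in DKO and 12.03, 12.39 and 11.71 in WT. The DKO arrays were tightly grouped below all WT arrays. Its fall of -1.28 (SE 0.21, limma adjusted p = 0.0262), 2.42-fold, lost its call without any 1 of the DKO Iso arrays or without WT Iso array 1 or 2, with an adjusted p of up to 0.155. Without Iso the difference was -1.61 (adjusted p = 0.00733). Its neighbour in function, Nppb, which encodes B-type natriuretic peptide, differed by 0.20 (adjusted p = 0.731), and the arrays of the peptide-degrading enzyme neprilysin (Mme) read 5.77, 5.53 and 5.70 in DKO and 4.64, 4.44 and 4.43 in WT. Mme rose by 1.16 (SE 0.18, adjusted p = 0.0148), with an adjusted p of up to 0.102 when any 1 of the 6 Iso-treated arrays was left out.

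The region before the start of Nppa is shown because Nppa is the classical load-responsive gene of ventricular muscle among the 42. RefSeq (GRCm38.p6) places its last 250 bases before the start at chr4:148000472-148000721, plus strand. Capitals mark the GATA element TGATAA, 122 to 117 bases before the annotated start, and the TATA box TATAAA, 9 to 4 bases before it.
Nppa promoter: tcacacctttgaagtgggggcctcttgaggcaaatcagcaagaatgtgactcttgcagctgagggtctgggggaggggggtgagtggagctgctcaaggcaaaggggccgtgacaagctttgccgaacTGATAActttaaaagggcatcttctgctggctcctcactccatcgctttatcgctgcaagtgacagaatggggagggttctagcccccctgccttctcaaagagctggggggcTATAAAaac

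Other hypertrophy genes did not pass. The slow myosin heavy chain Myh7 read 3.49, 3.15 and 3.58 in DKO and 4.17, 4.57 and 3.87 in WT, a difference of -0.80 (limma adjusted p = 0.166). The fast adult form Myh6 differed by 0.23 (adjusted p = 0.706), skeletal actin Acta1 by 0.15 (adjusted p = 0.848) and the stretch-induced Ankrd1 by -0.38 (adjusted p = 0.693). Myh7 was low on all arrays, and its groups did not overlap. Among transcription factors downstream of CaMKII and the class IIa deacetylases, Mef2a differed by 0.19 (adjusted p = 0.889), Hdac4 by -0.02 and Nr4a1, an early gene with a MEF2-controlled promoter, by -0.74 (adjusted p = 0.0948).

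Signalling and calcium handling genes gave no calls. None of 23 tested genes of beta-adrenergic signalling passed, and their median was 0.01. The smallest p among them belonged to the phosphodiesterase Pde3b (0.53, limma adjusted p = 0.315), Rgs2, a brake on G proteins (-0.47, adjusted p = 0.436), and the receptor kinase Grk5 (0.64, adjusted p = 0.473). Among the phosphodiesterases, Pde4d differed by 0.01 (adjusted p = 0.995); Adrb1 was not analysed here. None of 25 calcium handling genes passed either, with a median of -0.03. The direct targets of CaMKII, the release channel Ryr2 (0.34, adjusted p = 0.549) and phospholamban (Pln, -0.10, adjusted p = 0.949), and the calcium pump Atp2a2 (0.10, adjusted p = 0.954) were not called different. Sorcin (Sri), which binds Ryr2, differed by 0.63 (adjusted p = 0.106), the inositol trisphosphate receptor Itpr2 by 0.70 (adjusted p = 0.216) and the mitochondrial calcium uniporter Mcu by -0.72 (adjusted p = 0.229), each without overlap between groups. Of 23 cardiac ion channel genes none passed and the median was -0.03; the potassium channel gene Kcnd2 was nearest, at -0.51 (adjusted p = 0.295). Outside these lists, Gnb3, a G protein beta subunit, rose by 0.82 (SE 0.15, adjusted p = 0.0429), against 1.01 without Iso (adjusted p = 0.0180), with an adjusted p of up to 0.199 when 1 array was left out.

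Immediate early and CREB-responsive genes, which cyclic AMP and calcium induce, also gave no calls. Of 36 tested, 28 differences were below 0, beside 49.1% of all genes. On 10 of the 36 the DKO arrays lay below all WT arrays, beside 8.56% of all genes. The median was -0.11. Nr4a1 read 7.71, 7.47 and 7.79 in DKO and 8.16, 8.63 and 8.40 in WT. Dusp1, a phosphatase that shuts off MAP kinases, differed by -0.76 (limma adjusted p = 0.324), Fos by -0.52 (adjusted p = 0.324), Dusp5 by -0.49 (adjusted p = 0.386) and Fosb by -0.47 (adjusted p = 0.456), all without overlap between groups. Egr1 differed by -0.06, and Crem, whose short form is a repressor that cyclic AMP induces, by 0.11. In untreated myocytes 15 of the 36 were below 0 and the median was 0.06. Of 29 tested genes of histones, H3 kinases and Polycomb none passed, with a median of -0.02; the histone variant H2az1 came nearest at -0.69 (adjusted p = 0.199).

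Cytokine genes were split. Of 33 tested inflammatory cytokines and NF-kB targets, Il15 rose and Ccl5 fell (2 of 33, beside 0.306% of all genes). Below 0 were 27 differences, beside 49.1% of all genes, and 11 genes had DKO arrays lower than every WT array, beside 8.56%. The list median was -0.21 under Iso and -0.01 without it. Il15 (Entrez gene 16168), a cytokine that sustains natural killer and memory T cells and that muscle also makes, read 7.01, 6.68 and 7.0 in DKO and 4.79, 4.62 and 4.25 in WT. The lowest DKO array lay far above the highest WT array. Its rise was 2.35 (SE 0.25, limma adjusted p = 8.92e-04), 5.08-fold, and without Iso the difference was 1.59 (adjusted p = 0.0200). The chain of its receptor that presents it, Il15ra, differed by -0.49 (adjusted p = 0.580).

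Ccl5 (Entrez gene 20304), a chemokine that draws T cells and monocytes, read 7.32, 7.40 and 7.33 in DKO and 8.83, 8.61 and 8.58 in WT. The spread within each group was small beside the gap of -1.32 (SE 0.15, limma adjusted p = 0.00230), which is 2.5-fold. Without Iso the difference was -0.01 (adjusted p = 0.991), and the interaction of -1.32 did not pass (adjusted p = 0.102). Cxcl3 (Entrez gene 330122), a chemokine that draws neutrophils, read 3.60, 3.51 and 3.83 in DKO and 5.77, 5.73 and 4.86 in WT. It was near the array median in every DKO culture and above it in every WT culture. Its fall of -1.81 (SE 0.32, adjusted p = 0.0327) was 3.50-fold, with an adjusted p of up to 0.191 when 1 array was left out, and without Iso the difference was -1.11 (adjusted p = 0.179). Other inflammatory genes did not pass: Ccl2 differed by -1.02 (adjusted p = 0.261), Il1b by -0.93 (adjusted p = 0.241), the iron-binding protein Lcn2 by -1.09 (adjusted p = 0.211), Il6 by -0.15 (adjusted p = 0.937) and Tnf by 0.31 (adjusted p = 0.456).

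The 250 bases before the start of Cxcl3 (RefSeq, GRCm38.p6, chr5:90785851-90786100, plus strand) are shown as the only promoter, among those found for the 42 genes, with a match to the NF-kB motif. Capitals mark a pair of overlapping matches, 73 to 64 and 72 to 63 bases before the start, and the TATA box, 30 to 25 bases before it.
Cxcl3 promoter: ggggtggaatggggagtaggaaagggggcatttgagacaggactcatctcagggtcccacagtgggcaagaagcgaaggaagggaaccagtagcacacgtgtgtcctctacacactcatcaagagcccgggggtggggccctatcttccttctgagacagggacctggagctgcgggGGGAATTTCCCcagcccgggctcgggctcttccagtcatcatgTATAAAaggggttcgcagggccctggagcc

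Promoter sequences were found for 10 of the 15 higher and 12 of the 27 lower genes, and for 10476 genes in all. Motifs were searched on both strands in the 250 bases before the start. The cyclic AMP response element TGACGTCA was in none of the 22 and in 2.69% of all promoters. The AP-1 motif TGANTCA was in Mme and Ppbp and in 5.71% of all, the NF-kB motif in Cxcl3 and in 5.42%, the CArG box in Ppbp and in 1.59%, and the MEF2 motif in the predicted gene Gm35438 and in 2.36%. The GATA element was in Nppa and in 4.99% of all. The TATA box was in 2 higher and 5 lower genes (Ephx1 and Gm35438, and Cxcl3, Hbb-bt, Nppa, Ociad2 and Ppbp) and in 8.95% of all. A match describes the letters of the sequence and not the binding of a factor.

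Antigen presentation and interferon genes gave 1 call in all. Of 22 tested antigen presentation genes Cd74 fell and none rose (1 of 22, beside 0.306% of all genes). Below 0 were 13 of the 22, beside 49.1% of all genes, and 8 had DKO arrays below all WT arrays, beside 8.56%. The median was -0.19 under Iso and 0.18 without it. Cd74, the invariant chain of MHC class II, read 7.52, 7.23 and 7.34 in DKO and 8.23, 8.55 and 8.13 in WT. The groups did not overlap. The fall of -0.94 (SE 0.17, limma adjusted p = 0.0400) had an adjusted p of up to 0.250 when 1 array was left out, and the untreated difference was 0.17 (adjusted p = 0.698). The class II chains H2-Eb1 (-0.65, adjusted p = 0.344), H2-Ab1 (-0.62, adjusted p = 0.460) and H2-Aa (-0.36, adjusted p = 0.478) did not pass. None of 28 tested interferon-stimulated genes passed; 20 were below 0 and 7 had DKO arrays below all WT arrays, beside the same 49.1% and 8.56%, and the median was -0.21. Oasl1 was nearest at -0.85 (adjusted p = 0.0764), followed by Irf7 at -0.48 (adjusted p = 0.324), while Irf9 differed by 0.40 (adjusted p = 0.324).

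Further lower genes are known from immune and blood cells. Cd14 (Entrez gene 12475), the co-receptor for bacterial lipopolysaccharide on macrophages, read 6.06, 5.84 and 6.35 in DKO and 6.98, 7.10 and 6.94 in WT. Its fall was -0.92 (SE 0.17, limma adjusted p = 0.0402; up to 0.250 with 1 array left out). Clec4d, a lectin receptor of myeloid cells, fell by 1.20 on the log2 scale (SE 0.17, adjusted p = 0.0114; up to 0.0886), and the immunoglobulin heavy chain constant gene Ighg2c fell by 1.13 (SE 0.18, adjusted p = 0.0207; up to 0.155). For all 3 genes every DKO array lay below every WT array. Ppbp, a chemokine stored in platelets, read 5.73, 5.93 and 6.34 in DKO and 7.97, 7.77 and 6.89 in WT and fell by 1.55 (SE 0.24, adjusted p = 0.0206; up to 0.129). It differed by -1.46 without Iso (adjusted p = 0.0312). Pf4, the other main platelet chemokine, differed by -0.88 (adjusted p = 0.142).

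Heme and redox genes contributed a pair of lower genes. Of 16 tested heme synthesis and iron genes, Hmox1 and Hbb-bt fell and none rose (2 of 16, beside 0.306% of all genes). The list median was -0.19 under Iso, with 12 of 16 below 0, beside 49.1% of all genes, and 0.19 without Iso, with 4 below 0. Hmox1 (Entrez gene 15368), the inducible heme oxygenase that breaks heme down, read 8.41, 8.35 and 8.30 in DKO and 9.48, 9.16 and 9.13 in WT. Its fall of -0.90 (SE 0.16, limma adjusted p = 0.0327; up to 0.171 with 1 array left out) was 1.87-fold, against 0.18 without Iso (adjusted p = 0.651). Hbb-bt, an adult beta-globin of red cells, read 8.22, 7.70 and 8.64 in DKO and 10.31, 10.10 and 10.29 in WT. The gap of -2.05 (SE 0.37, adjusted p = 0.0375; up to 0.240) was 4.13-fold, against 0.64 without Iso (adjusted p = 0.451). Globin genes have near-identical copies, whose signals this array may not separate. In the list of NRF2 targets and glutathione defence, Hmox1 was the only 1 of 29 to pass, 20 were below 0, beside 49.1% of all genes, and the median was -0.08. Nqo1 differed by -0.67 (adjusted p = 0.157) and the factor itself, Nfe2l2, by -0.71 (adjusted p = 0.317). Outside the list, the microsomal glutathione transferase Mgst1 fell by 0.67 (SE 0.11, adjusted p = 0.0206; up to 0.119) and the epoxide hydrolase Ephx1 rose by 0.67 (SE 0.11, adjusted p = 0.0278; up to 0.188).

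Among the markers of cell types other than myocytes 4 genes passed, all lower in DKO: Cd74, Cd14, Hbb-bt and Ppbp. Of 17 tested markers of macrophages and leukocytes, 16 were below 0 (49.1% of all genes) and 8 had DKO arrays below all WT arrays (8.56% of all genes), with a median of -0.31. Without Iso 9 of the 17 were below 0 and the median was -0.05. Their summed signal on the linear scale was 762 to 890.3 on the DKO Iso arrays and 1209 to 1292 on the WT Iso arrays, while Ptprc, Ccr2 and Cd52 were dim and Lyz2 was not analysed here. Cd74 and Cd14, both in this list, were the 2 of 17 that passed, beside 0.306% of all genes. The summed signal of the list includes both, so it partly repeats them. Red cell and platelet markers summed to 611 to 901 in DKO and 1882 to 2188 in WT. This list of 7 tested contains Hbb-bt and Ppbp, and Hbb-bs and Slc4a1 were dim. Most of the WT sum is Hbb-bt, so the sum largely repeats that gene. Of the 7, 5 were below 0 and 2 above. In 4 the DKO arrays lay below all WT arrays and in 1 above them. The part of these cell types in the lower chemokine, antigen presentation, heme and globin genes was not tested. In RNA from whole cultures, fewer cells of a type and less RNA per cell cannot be told apart.

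All 7 tested atrial markers were below 0, beside 49.1% of all genes, with a median of -0.56, and Bmp10 was dim. Nppa is 1 of the 7 and the only member that passed. The summed signal of the list was 1900 to 2222 in DKO and 3641 to 6161 in WT. Most of that sum is Nppa, so it largely repeats the Nppa values and is no separate support. Sln read 4.29, 4.02 and 3.56 in DKO and 8.33, 8.11 and 3.27 in WT, and Myl7 read 5.68, 5.18 and 5.74 in DKO and 8.16, 7.93 and 4.82 in WT. WT Iso arrays 1 and 2 were thus high and WT Iso array 3 was as low as the DKO arrays, and neither gene passed (Sln -2.61, limma adjusted p = 0.570; Myl7 -1.44, adjusted p = 0.690). Nppa too was lowest among the WT Iso arrays on array 3, at 11.71, where it still lay above the DKO arrays. The part of atrial cells in the lower Nppa was not tested. Fibroblast markers summed to 1820.4 to 2055 in DKO and 2078 to 2573 in WT, lymphocyte markers to 114 to 119 and 123 to 134, and markers of neurons, Schwann cells and mesothelium to 123 to 138 and 155 to 178. No member of these 3 lists passed, Tcf21 was dim among the fibroblast markers, Cd3d, Cd4, Cd8a and Cd79a were dim among the lymphocyte markers, and Sox10 and S100b were dim among those of nerve cells. The sums overlapped between genotypes for endothelium (5274 to 6075 in DKO, 4306 to 7064 in WT), for smooth muscle and pericytes (986 to 1107 and 894 to 1059) and for ventricular myocytes (86475 to 92603 and 87318 to 89424), again with no member passing. Of the 12 ventricular myocyte markers, 6 were above and 6 below 0.

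**Figure D3:**
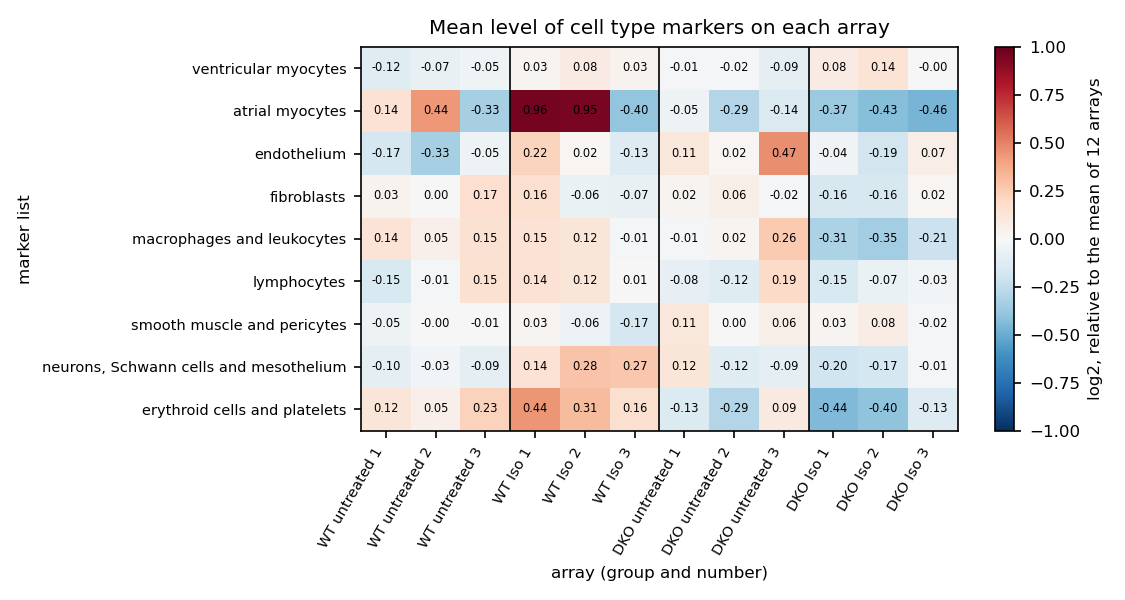
Mean log2 level of each marker list on each of the 12 arrays, relative to that list's mean over the 12 arrays; red is higher and blue lower, and vertical lines part the 4 groups. Macrophage and leukocyte markers are at -0.31, -0.35 and -0.21 on the DKO Iso arrays and at 0.15, 0.12 and -0.01 on the WT Iso arrays, and atrial markers are at 0.96 and 0.95 on WT Iso arrays 1 and 2 but at -0.40 on WT Iso array 3.

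Few metabolic genes were called different. Bdh1 (Entrez gene 71911), the mitochondrial enzyme that interconverts the main ketone bodies, read 8.82, 8.72 and 8.72 in DKO and 7.17, 7.72 and 7.91 in WT. Its rise of 1.15 (SE 0.16, limma adjusted p = 0.0107) was 2.23-fold, and its call was lost without DKO Iso array 1 or 2, with an adjusted p of up to 0.0821. Thrsp, a nuclear protein that promotes fatty acid synthesis, read 9.82, 9.70 and 9.80 in DKO and 8.60, 8.67 and 9.02 in WT and rose by 1.01 (SE 0.14, adjusted p = 0.0114; up to 0.0837). Both genes had all DKO arrays above all WT arrays. Without Iso the differences were 0.55 for Bdh1 (adjusted p = 0.195) and 0.92 for Thrsp (adjusted p = 0.0200).

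Of 34 tested fatty acid oxidation genes none passed, and the median was 0.08. None of 32 oxidative phosphorylation genes passed either (median 0.00456), nor did any of 23 genes of glycolysis and glucose handling (median 0.02), although the glucose transporter Slc2a3, outside that list, fell by 0.66 (SE 0.12, limma adjusted p = 0.0466; up to 0.250 with 1 array left out). The remaining lists gave no calls: endoplasmic reticulum stress (24 tested, median -0.03), muscle ubiquitin ligases, FoxO and autophagy (28, 0.01), cell death (16, -0.00203), circadian clock (18, 0.11) and collagens and matrix (29, -0.08). In these the smallest p values belonged to the chaperone Hyou1 (-0.63, adjusted p = 0.166), the ubiquitin-conjugating enzyme Ube2a (0.38, adjusted p = 0.259), Bak1 (-0.32, adjusted p = 0.668), the clock repressor Nr1d1 (-0.69, adjusted p = 0.307) and the matrix glycoprotein Thbs1 (-1.03, adjusted p = 0.0911).

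**Figure D4:**
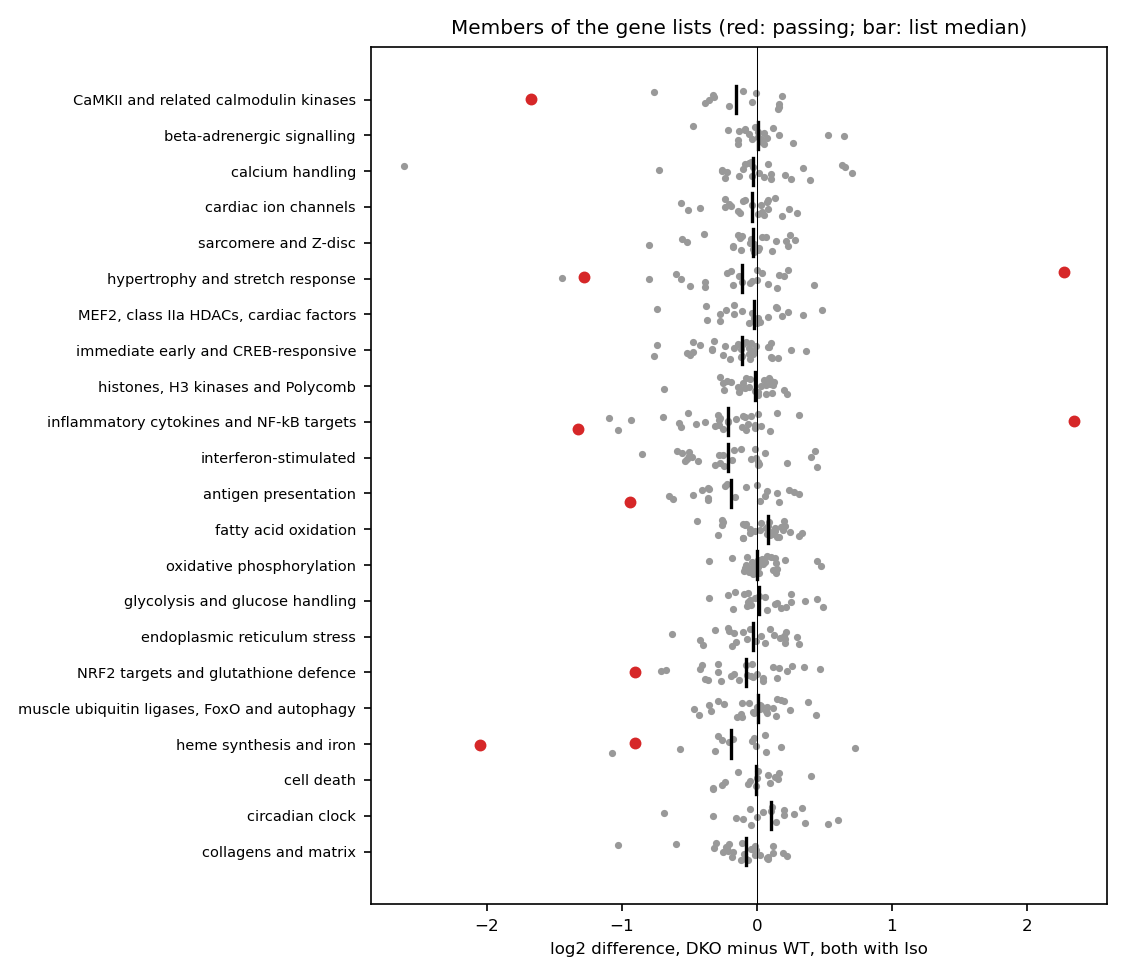
Log2 difference, DKO minus WT with Iso (horizontal axis), of every tested member of 22 gene lists (one row per list, each point a gene, red where it passed, vertical bar at the list median). Medians lie between -0.21 and 0.11, and the red points are single genes such as Tpm2 at 2.27, Il15 at 2.35 and Hbb-bt at -2.05.

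Several of the largest differences belong to genes outside these lists. Rps3a2 (Entrez gene 100043780), listed by RefSeq as a pseudogene of the ribosomal protein gene Rps3a1, read 4.93, 5.04 and 6.17 in DKO and 9.93, 9.69 and 9.74 in WT. This was the widest gap of all genes tested, -4.41 (SE 0.31, limma adjusted p = 5.6e-05) or 21.2-fold. Rps3a1 itself differed by 0.05 (limma adjusted p = 0.991). Its probe set read low, with means of 3.65 in DKO and 3.60 in WT, so little can be said of a change in the parent gene. A pseudogene and its parent share sequence, and which of them the probes read is uncertain. Esd, which encodes the esterase that hydrolyses S-formylglutathione, read 4.01, 4.65 and 4.46 in DKO and 6.44, 6.89 and 6.94 in WT. It fell by 2.38 (SE 0.25, adjusted p = 7.77e-04), 5.22-fold. Abhd1, listed by RefSeq as a transcribed pseudogene, read 3.85, 3.71 and 4.29 in DKO and 6.57, 6.89 and 6.85 in WT and fell by 2.82 (SE 0.24, adjusted p = 1.59e-04), 7.04-fold. All 3 also passed without Iso, with differences of -4.14 for Rps3a2, -2.93 for Esd and -1.81 for Abhd1.

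Also lower in DKO were Hyi, named for hydroxypyruvate isomerase (-1.62, SE 0.26, limma adjusted p = 0.0206), and Rnls, named for renalase (-1.24, SE 0.20, adjusted p = 0.0206). So were Ociad2 (-1.21, SE 0.20, adjusted p = 0.0262), the dehydrogenase subunit Ogdhl (-1.26, SE 0.18, adjusted p = 0.0114) and the HD domain protein Hddc3 (-1.46, SE 0.21, adjusted p = 0.0114). When 1 array was left out, the adjusted p of Hyi, Rnls, Ociad2, Ogdhl and Hddc3 reached 0.151, 0.139, 0.171, 0.0922 and 0.0917. Without Iso, Hyi (-2.00), Rnls (-1.31) and Ociad2 (-1.77) passed too, whereas Hddc3 differed by -0.07. RefSeq lists 120 tested genes as transcribed pseudogenes, of which Abhd1, Rnls and Hyi passed (2.5%, beside 0.306% of all genes). Chromosome 18, picked out after the shares were seen as the one with the highest, held 5 of 373 (1.34%), namely Mir5112, Myot, Cd74, Cd14 and Mir187.

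Among the higher genes, Atp6v1g1, which encodes a part of the proton pump of vacuoles and lysosomes, read 10.50, 10.31 and 10.45 in DKO and 7.85, 7.57 and 9.29 in WT. WT Iso array 3 lay between the other WT arrays and the DKO arrays. The rise of 2.18 (SE 0.33, limma adjusted p = 0.0148) was 4.54-fold, with an adjusted p of up to 0.102 when 1 array was left out, and without Iso the genotypes differed by 0.20 (adjusted p = 0.831). Prrg4, a membrane protein with a vitamin K-dependent domain, rose by 1.53 (SE 0.25, adjusted p = 0.0206; up to 0.147), and P3h2, a collagen prolyl hydroxylase, by 1.44 (SE 0.24, adjusted p = 0.0278; up to 0.165). Polr2h, a subunit shared by the RNA polymerases, rose by 0.85 (SE 0.15, adjusted p = 0.0361; up to 0.201), and Adam22, a membrane protein of the disintegrin family, by 0.76 (SE 0.14, adjusted p = 0.0483; up to 0.267). Both of the last read low in WT, with means of 2.62 and 3.49. Polr2h lay above the array median on the 3 DKO Iso arrays and on none of the other 9, so it entered the test only through the group in which it is high, alone among the 42, and its call supports nothing. The 42 also hold 4 genes without a proper name: 1810037I17Rik, which rose by 2.26, and Gm26782, Gm35438 and Gm19601, whose adjusted p reached 0.119, 0.149 and 0.191 when 1 array was left out.

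Set beside the untreated arrays of the same mice, which are different arrays but not different animals, 33 of the 42 genes differed in the same direction without Iso, 14 of the 15 higher and 19 of the 27 lower. Of these 33, 17 also passed without Iso, 5 higher and 12 lower, where 28 genes (0.204%) passed in all. Mir5112 passed without Iso in the opposite direction. On 25 of the 42 the untreated arrays did not overlap in that same direction, where 17% of all genes did not overlap in either. The size was smaller without Iso for 32 of the 42, a direction that choosing genes by their difference under Iso favours. The Iso arrays that picked the 42 also enter the interaction, which favours small p values among them. For 22 of the 42 the limma interaction had an unadjusted p under 0.05, beside 10.1% of all genes, and 2 passed after adjustment. Thus a difference that passed with Iso and not without it, as in Ccl5, Cd74, Cd14, Hmox1, Hbb-bt and Esr1, was not shown to differ between the conditions, and only Mir5112 and Mir1932 were.

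**Figure D5:**
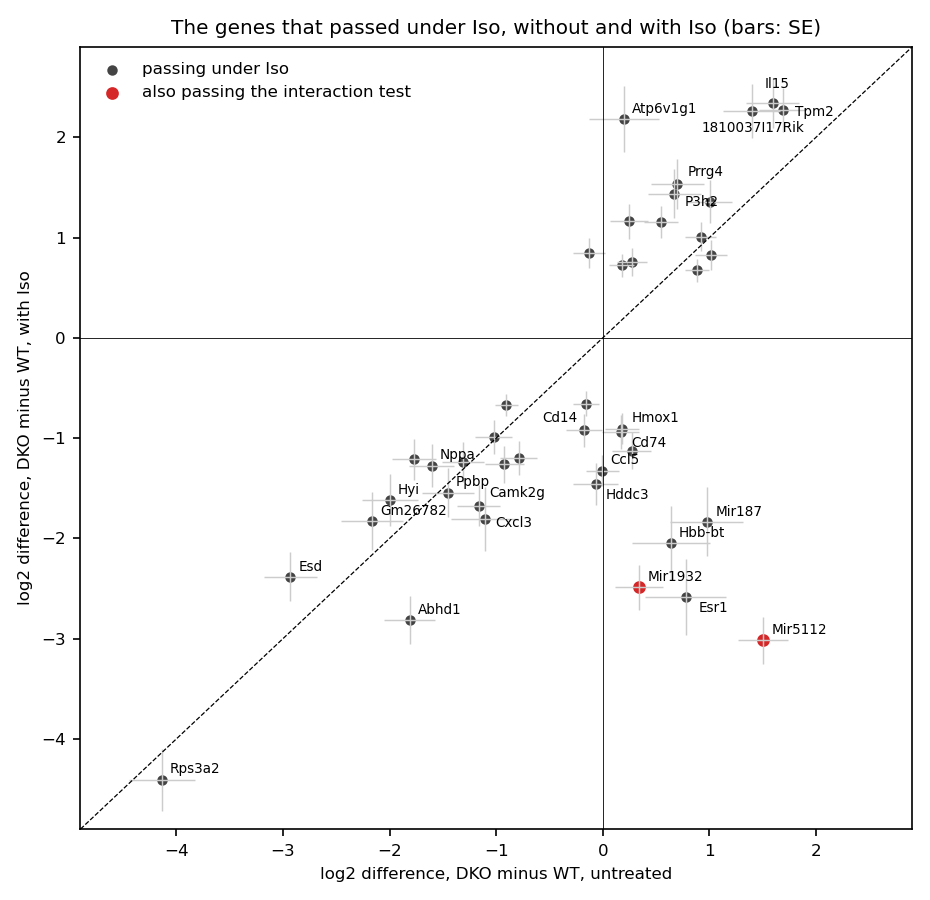
Log2 difference, DKO minus WT, without Iso (horizontal axis) and with Iso (vertical axis) of the 42 genes that passed with Iso, with bars for the standard errors; the dashed line marks equal differences. Rps3a2 and Ppbp lie near the line, and Esd, Tpm2 and Il15 lie farther above it. Ccl5 and Hddc3 lie near 0 on the horizontal axis. The red points, Mir5112 and Mir1932, passed the interaction test.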

How the data were processed

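Affymetrix arrays were summarised by the authors with RMA, per the submitters' processing notes; the sources used here do not give its version, the array type or the annotation build. The deposited log2 values were used as they are, and differences between array distributions were at most 0.00187. Probe sets were named through the platform annotation: of 25428, those with 1 symbol gave 24704 genes, the brighter being used where a gene had 2, and those without one were not used. limma 3.58.1 in R 4.3.3 fitted 4 group means over all 12 arrays with moderated variances, with Benjamini-Hochberg adjustment of p-values over 13737 genes. Gene order, types and sequences came from RefSeq tables of GRCm38.p6.

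Members and lists were chosen with earlier results of these data known. Named were the 15 largest rises and 15 largest falls that passed, up to 6 passing members of each of 31 lists, up to 3 of the smallest p where none passed, a fixed set of 24 genes and the neighbours of Camk2d and Camk2g; other passing genes, Rps3a1, Rnf213, Tpm1, Il15ra, Pf4, Sln, Myl7 and list members given beside these were named after their values were seen.

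The 2 groups compared come from different mice. The interaction also uses the untreated arrays of the same mice, and the main fit does not model that pairing. With the mouse as a random block the same 2 genes passed the interaction test. Arrays of the same mouse deviated together at correlations of -0.0623 to 0.130 across genes, and arrays sharing a replicate number between the genotypes at -0.00305 to 0.128. Alternatives were other filters, scalings and variance settings, array weights, the mouse or replicate number as a block, only the 6 Iso-treated arrays, a fold threshold and each array left out.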

Additional observations from a re-analysis of the deposited data

Results flagged for a closer look

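In both of the genes below the genotype difference with Iso departed from that without it by limma's interaction test, with Benjamini-Hochberg adjustment over 13737 genes. For Mir5112 the interaction was -4.52 (adjusted p = 7.87e-05), from a difference of 1.5 without Iso to -3.02 with it. For Mir1932 it was -2.83 (adjusted p = 0.00642), from 0.34 to -2.49. The groups of 3 arrays are too small for a search for single deviating arrays.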

How the results depend on the processing

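Under Iso, 42 genes passed. Other filters, scalings and variance settings, the mouse as a random block and the omission of small non-coding RNA genes gave 39 to 43. With the mouse as a block the 42 genes were the same, and with the replicate number as a fixed block 44 passed, of which 36 were shared. The numbers mark different mice in the 2 genotypes and do not pair them. The same block raised the interaction count from 2 to 6, and gave 32 calls without Iso against 28. Larger moves came with array weights (164), only the 6 Iso-treated arrays (77, all 42 kept), a required difference beyond 0.5 log2 (9), and, chosen after seeing the data, omission of untreated DKO array 3 and WT Iso array 3 (101, of which 38 shared); the cause was not tested. Leaving out 1 array gave 10 to 163 calls with Iso, 7 to 180 without Iso (180 without untreated DKO array 2, 7 without untreated WT array 1) and 2 to 16 for the interaction (16 without untreated DKO array 2). No named gene changed sign in an alternative where it had passed in the main fit or passed in that alternative. Sign changes of genes that passed in neither were not counted. Over 28 alternatives, 9 of the 42 kept their call in each in which they were tested, and Ccl5 lost it only at the required difference. Scaling moved the median of all genes by at most 0.00411. Array signal over background limits what can be said of dim genes.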

Other observations

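When only the 6 Iso-treated arrays were fitted, so that the untreated arrays added nothing to the estimate of spread, 35 further genes passed beside the 42. These were chosen for description after their values were seen. None of the 35 passed with 12 arrays, and they were tested for no shared theme. Lower in DKO were the ribonuclease Rnase4 by -1.65 (limma adjusted p = 0.00597 with 6 arrays, 0.284 with 12), the galectin Lgals3 by -1.06 (0.0105 and 0.0825), the adipokine and chemoattractant Rarres2 by -1.17 (0.0132 and 0.211), the iron-binding Lcn2 by -1.09 (0.0229 and 0.211), the binding protein of insulin-like growth factors Igfbp6 by -1.09 (0.0188 and 0.256) and the chemokine Cxcl14 by -0.70 (0.0441 and 0.378). P-selectin (Selp), an adhesion molecule of platelets and endothelium, was lower by -0.84 (0.0132 and 0.0720), the interferon-stimulated Oasl1 by -0.85 (0.0367 and 0.0764), the heme synthesis enzyme Alad by -1.07 (0.0324 and 0.0914) and the NRF2 target Nqo1 by -0.67 (0.0474 and 0.157). Cited2, a transcriptional co-regulator, differed by -1.02 (0.0132 and 0.0578). Higher in DKO were the mitochondrial alcohol dehydrogenase Adhfe1 by 1.03 (0.0104 and 0.0914), Ndrg4, which is expressed in heart and brain, by 0.88 (0.0221 and 0.0579), and the ubiquitin ligase Itch by 0.76 (0.0357 and 0.272).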
